A study of Mus musculus with 18 samples.

Results

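Transcripts of 10 genes of growth hormone, prolactin, insulin, growth factor and serotonin signalling were followed in mouse islets of Langerhans, the endocrine clusters of the pancreas in which beta cells make insulin. The genes were chosen by name, as receptors (Ghr, Prlr, Insr, Igf1r, Met, Egfr), STAT5 target genes (Cish, Socs2) and the enzymes that start serotonin synthesis (Tph1, Tph2). All 10 were found among the 24346 gene symbols listed, and 8 of them were among the 12234 genes that passed a filter on low values (at least 1 FPKM, fragments scaled by transcript length and library size, in at least 3 of the 18 libraries). Tph1 and Tph2 did not pass.

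The study compared islets of C57BL/6 mice in which exon 2 of Cdh13, the gene of the surface protein T-cadherin, was deleted with islets of C57BL/6 mice in which that exon was floxed, that is, flanked by recombination sites. The series' design text calls these mice knockout and wild type. There were 6 groups of 3 libraries: deleted and floxed islets at 14 weeks of age after 6 weeks of high-fat diet begun at 8 weeks, deleted and floxed islets at 14 weeks on chow, and deleted and floxed islets at 8 weeks on chow. No source used here gives the Cre driver, the cells it acts in, the sex of the mice or any pooling of animals. Separate animals are not named for the replicates either, so p-values measure the spread between these libraries, which may be technical.

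Growth hormone and prolactin bind related receptors that act through the kinase JAK2 and the transcription factor STAT5, and STAT5 switches on Cish and Socs2, whose proteins damp the same receptors. In pregnant mice this route raises serotonin synthesis in beta cells, mainly through Tph1, and the cells divide. Insulin and insulin-like growth factor 1 (IGF-1) act through the tyrosine kinases encoded by Insr and Igf1r, while hepatocyte growth factor and the epidermal growth factor family act through those encoded by Met and Egfr.

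Cdh13 had 0.247 to 0.809 FPKM in the deleted libraries and 1.08 to 2.06 FPKM in the floxed libraries, with no overlap. The difference was -0.69 on the log2(FPKM + 1) scale on the high-fat diet (adjusted p = 0.0107, or 0.0615 without deleted high-fat diet replicate 1), -0.78 on chow at 14 weeks (adjusted p = 0.0674) and -0.51 at 8 weeks (adjusted p = 0.179). These levels rest on 8 to 24 fragments per deleted library and 30 to 59 per floxed library. The deposited value sums the whole gene, so it does not show which exons the remaining fragments came from. Beta cell markers (10 genes, led by Ins2) held 50.6% to 62.1% of the summed FPKM in the 6 groups. Summed FPKM per library ran between 903346 and 1394010. The value of a single fragment spanned 1.38-fold between libraries, as judged from the spacing of low values, so relative depth differed little. Whole fragments could be recovered for 6 members, with 122 to 266 per library for Cish, 556 to 944 for Insr, 984 to 2438 for Igf1r and 523 to 881 for Met. They could not be recovered for Ghr, Prlr, Socs2 and Egfr.

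Igf1r, the receptor of IGF-1 on chromosome 7 (67952827 to 68233668, plus strand, GRCm38), had the largest log2(FPKM + 1) difference between groups of the 8 tested members. The low gene Tph2, which was not in that fit, spanned 9.76-fold over the 18 libraries, against 2.66-fold for Igf1r. On the high-fat diet Igf1r had 9.96, 10.9 and 11.2 FPKM in deleted islets, against 6.32, 5.50 and 5.20 FPKM in floxed islets. The groups did not overlap, and the 3 floxed libraries on the high-fat diet were the 3 lowest of all 18. The mean in deleted islets was 188% ± 12.7 (SE, n = 3 each) of that in floxed islets, a difference of 0.81 ± 0.09 (SE) on the log2(FPKM + 1) scale, which understates changes of low genes (limma, adjusted p = 1.34e-05, 95% interval 0.62 to 1.0). In fragments, the sums over 3 libraries were 5379 in deleted islets (95% Poisson interval 5236 to 5525) and 2994 in floxed islets (2888 to 3103), where these intervals cover counting error only.

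On chow Igf1r was close between genotypes. At 14 weeks it had 11.1, 11.9 and 11.4 FPKM in deleted islets, against 9.53, 11.2 and 10.02 FPKM in floxed islets, with overlap. At 8 weeks the values were 11.6, 10.97 and 13.9 FPKM in deleted islets, against 10.6, 10.3 and 10.4 FPKM in floxed islets. The 8-week groups did not overlap, with deleted islets higher, but the difference of 0.20 ± 0.09 did not pass the test across genes (adjusted p = 0.385). At 14 weeks on chow the difference was 0.15 ± 0.09 (adjusted p = 0.799, interval -0.04 to 0.34).

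Within floxed islets, Igf1r fell on the high-fat diet to 55.4% ± 4.19 (SE) of its chow level at 14 weeks, with means of 5.67 ± 0.58 FPKM on the diet and 10.2 ± 0.85 FPKM on chow (SD, n = 3 each). The log2 difference was -0.75 ± 0.09 (adjusted p = 9.12e-06). Within deleted islets the means were 10.7 ± 0.63 FPKM on the diet and 11.4 ± 0.40 FPKM on chow, a difference of -0.09 ± 0.09 that did not pass (adjusted p = 0.549, interval -0.29 to 0.10). The diet response differed between the genotypes by 0.66 ± 0.13 (interaction of genotype with diet, adjusted p = 0.00696). This interaction and the comparisons above share libraries, as do the diet and age comparisons through the 14-week chow groups. All 3 Igf1r results held in each of 26 alternative analyses, with log2 differences of 0.76 to 0.90 between genotypes on the diet, -0.84 to -0.69 for diet in floxed islets and 0.60 to 0.74 for the interaction.

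Insr, the insulin receptor gene on chromosome 8 (3122061 to 3279617, minus strand), was higher on the high-fat diet than on chow at 14 weeks in both genotypes. In deleted islets it had 6.66, 7.57 and 5.91 FPKM on the diet, against 4.503, 4.68 and 5.52 FPKM on chow at 14 weeks. In floxed islets it had 6.83, 6.60 and 5.86 FPKM on the diet, against 4.73, 5.12 and 5.05 FPKM on chow. The diet and 14-week chow groups did not overlap in either genotype. Insr rose by 0.38 ± 0.10 in deleted islets (adjusted p = 0.0111) and by 0.31 ± 0.10 in floxed islets (adjusted p = 0.0208), to 137% ± 13.1 and 129% ± 6.72 (SE) of the chow level. The 2 responses differed by 0.07 ± 0.14 (adjusted p = 0.857, interval -0.22 to 0.36). The 14-week chow groups had the lowest Insr means of all groups. At 8 weeks on chow Insr had 5.73, 5.48 and 5.36 FPKM in deleted islets, below the deleted libraries on the diet. In floxed islets it had 6.37, 5.61 and 6.01 FPKM at 8 weeks, which overlapped the floxed libraries on the diet. The diet groups were not tested against the 8-week groups.

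Both Insr calls were lost without certain libraries. In deleted islets the adjusted p was 0.0718 without high-fat diet replicate 2, 0.0589 without chow replicate 1, and 0.0511 in a fit of only the compared groups. In floxed islets it was 0.0814 without high-fat diet replicate 1, 0.0613 without high-fat diet replicate 2 and 0.0735 without chow replicate 1. The log2 difference was 0.28 to 0.34 in the 5 fits with a library left out. Between genotypes Insr differed by 0.05 ± 0.10 on the diet (adjusted p = 0.804) and by -0.02 ± 0.10 on chow at 14 weeks (adjusted p = 1.0).

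As FPKM is a level per length, both receptors can be set against each other within a library. The ratio of Insr to Igf1r was 0.529 to 0.697 in deleted islets and 1.08 to 1.20 in floxed islets on the high-fat diet. At 14 weeks on chow it was 0.394 to 0.486 in deleted islets and 0.458 to 0.504 in floxed islets. At 8 weeks it was 0.387 to 0.4999 in deleted islets and 0.547 to 0.600 in floxed islets. Floxed islets on the high-fat diet were thus the 1 group of 6 in which Insr stood above Igf1r. No separate test was made of the ratio.

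**Figure D1:**
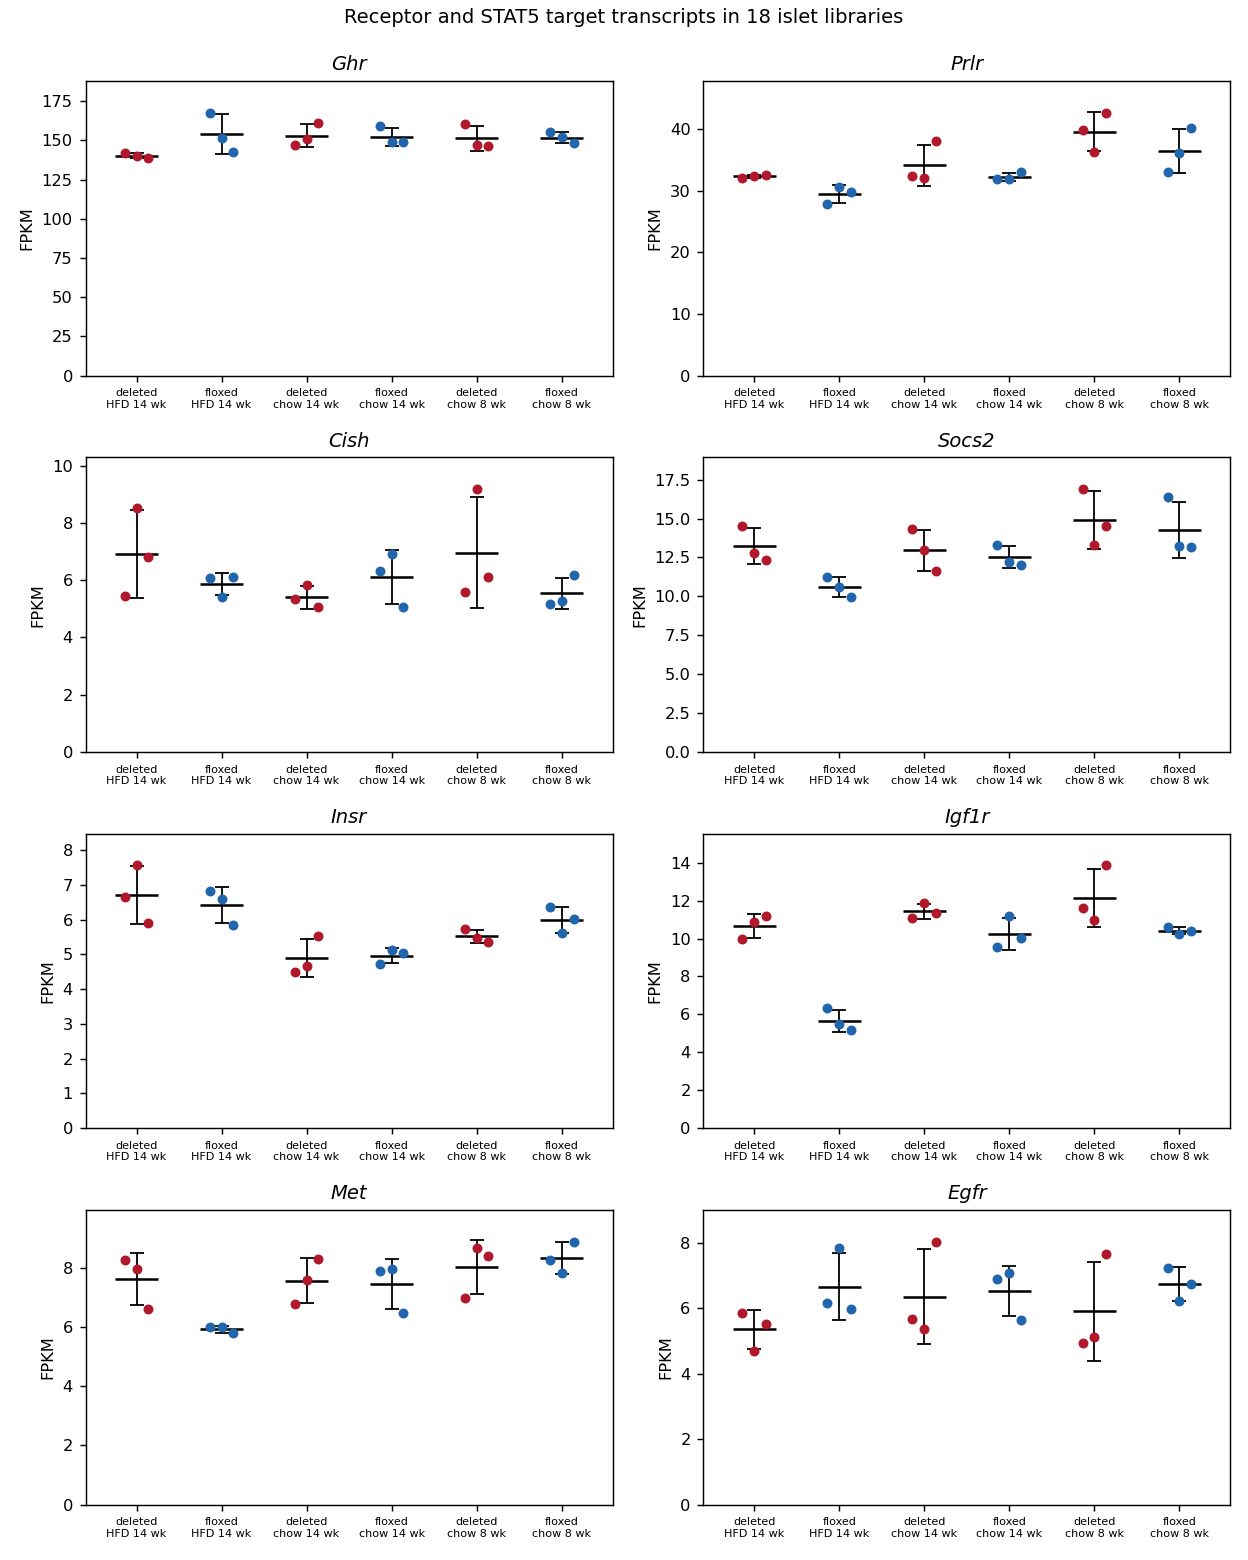
FPKM (linear axis from 0) of the 8 members that passed the filter, 1 panel a gene, with 1 point per library in deleted (red) and floxed (blue) islets and black bars for the mean and SD (n = 3). Igf1r in floxed islets on the high-fat diet lies at 5.20 to 6.32 FPKM, below every other library, and Insr is above its 14-week chow values in both high-fat diet groups.

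Ghr and Prlr carry the growth hormone and prolactin signals. Ghr, on chromosome 15 (3317760 to 3583492, minus strand), was the most abundant member, with 139 to 168 FPKM in all 18 libraries, a range of 1.21-fold, and it exceeded 97.7% of the listed genes. On the high-fat diet it had 142, 140 and 139 FPKM in deleted islets, against 168, 151 and 143 FPKM in floxed islets. Deleted islets lay just below floxed islets without overlap, but the difference of -0.13 ± 0.06 did not pass (adjusted p = 0.199). The other 5 groups had means between 151 and 154 FPKM and overlapped in order of level.

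Prlr, also on chromosome 15 (10177238 to 10349180, plus strand), had 27.9 to 42.7 FPKM. Group means on the high-fat diet were 32.4 ± 0.23 FPKM in deleted islets and 29.4 ± 1.4 FPKM in floxed islets (SD, n = 3 each). On chow they were 34.2 ± 3.3 FPKM in deleted islets and 32.3 ± 0.64 FPKM in floxed islets at 14 weeks, and 39.6 ± 3.2 FPKM in deleted islets and 36.5 ± 3.6 FPKM in floxed islets at 8 weeks. The order was highest at 8 weeks and lowest in floxed islets on the diet, and only the lowest group did not overlap its neighbour. From 8 to 14 weeks the difference was -0.21 ± 0.08 in deleted islets (adjusted p = 0.191) and -0.17 ± 0.08 in floxed islets (adjusted p = 0.275). Neither passed, nor did any of its genotype or diet differences. Its annotated exons overlap those of the predicted gene Gm21973 on the same strand, which is not in the tables, so how the authors' counting treated shared fragments is unknown.

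STAT5 binds the palindrome TTCNNNGAA, and 2 members hold it in the 300 bases around a tabled RefSeq start (250 before to 50 after, GRCm38.p6), where the search of 1 strand covers both. The table holds no promoter of Socs2 or Insr, so these were not searched. The 2 stretches are shown because they are the matches among the 8 members searched, with the motif in capitals. Cish holds it in 2 copies that do not overlap, at chr9:107296655-107296682 (plus strand, bases -4 to 24 relative to the start), and Prlr holds it in 1 of its 3 tabled promoters, at chr15:10223792-10223808 (plus strand, bases -114 to -98).
Cish: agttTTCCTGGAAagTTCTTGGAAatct
Prlr: tgagTTCTAGGAAtaag
Of 32851 tabled mouse promoters of this length, 8.30% hold the motif at least once and 0.457% hold it 2 or more times. The tabled promoters of Ghr, Tph1, Tph2, Igf1r, Met and Egfr hold no match, which says only that these letters are not in those windows. A match is a description of sequence and not a measured binding site.

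Cish, on chromosome 9 (107296026 to 107302784, plus strand), encodes the STAT5-induced inhibitor CIS. It had 5.44, 8.51 and 6.81 FPKM in deleted islets on the high-fat diet, against 6.08, 5.41 and 6.10 FPKM in floxed islets. The 2 highest of all 18 values, 9.19 and 8.51 FPKM, were replicate 2 of the deleted islets at 8 weeks and on the diet, and at least 1 other library of each of these groups lay within the range of the matching floxed group. All 6 group means lay between 5.41 and 6.97 FPKM and overlapped in order of level. No Cish difference passed, and the widest, the interaction of genotype with age, was -0.40 ± 0.21 (adjusted p = 0.630). Gm17041, an antisense gene, and Gm17040, a pseudogene on the opposite strand, overlap the Cish exons, and the library preparation does not mark strand.

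Socs2, on chromosome 10 (95385362 to 95417180, minus strand), encodes a second STAT5-induced inhibitor, best known for limiting growth hormone signals. On the high-fat diet it had 14.5, 12.8 and 12.3 FPKM in deleted islets, against 11.2, 10.6 and 9.94 FPKM in floxed islets. The groups did not overlap, and the 3 floxed libraries on the diet were the lowest of 18. The difference of 0.29 ± 0.10 fell short of the threshold (adjusted p = 0.0728, interval 0.08 to 0.51), as did that of diet in floxed islets at -0.22 ± 0.10 (adjusted p = 0.112). With the replicate number as a block, both passed (adjusted p = 0.0182 and 0.0342). In each group replicate 1 had the highest Socs2 level, but whether the numbers pair the samples was not settled.

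Met and Egfr are receptors of other growth factors that act on beta cells. Met, on chromosome 6 (17463800 to 17573980, plus strand), had 8.26, 7.96 and 6.62 FPKM in deleted islets on the high-fat diet, against 6.00, 6.00 and 5.80 FPKM in floxed islets. As for Igf1r and Socs2, the floxed libraries on the diet were the 3 lowest of 18. The genotype difference was 0.31 ± 0.10 (adjusted p = 0.0648) and that of diet in floxed islets -0.28 ± 0.10 (adjusted p = 0.0514), both just short of the threshold. They passed in 3 and 6 of 26 alternative analyses, among them the first without deleted high-fat diet replicate 3 (0.39, adjusted p = 0.0351) or deleted 8-week replicate 1 (adjusted p = 0.0459), and the second without floxed chow replicate 3 at 14 weeks (-0.37, adjusted p = 0.0231), deleted high-fat diet replicate 3 (adjusted p = 0.0428) or deleted 8-week replicate 1 (adjusted p = 0.0380). In deleted islets the diet difference was 0.01 ± 0.10 (adjusted p = 0.974), and the interaction was 0.29 ± 0.15 (adjusted p = 0.341).

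Egfr, on chromosome 11 (16752203 to 16918158, plus strand), had 5.85, 4.70 and 5.52 FPKM in deleted islets on the high-fat diet, against 6.15, 7.83 and 5.98 FPKM in floxed islets. Deleted islets were lower without overlap, by -0.26 ± 0.15 on the log2 scale, which did not pass (adjusted p = 0.282). Its 6 group means ran between 5.36 and 6.75 FPKM and overlapped in order of level, and no Egfr difference passed.

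**Figure D2:**
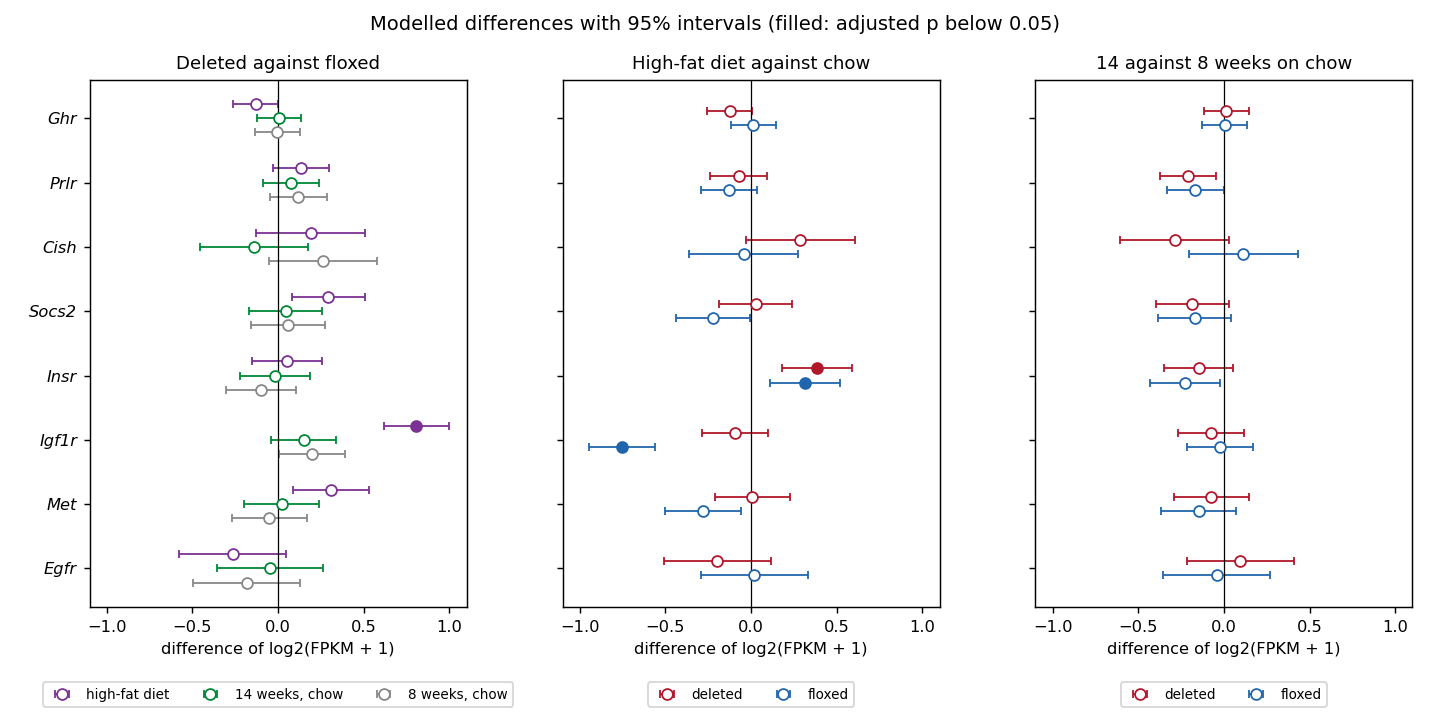
Differences of log2(FPKM + 1) with 95% intervals from the limma model for the 8 members that passed the filter, as deleted against floxed (left), high-fat diet against chow (middle) and 14 against 8 weeks (right); filled points passed at an adjusted p below 0.05. The filled points are Igf1r at 0.81 between genotypes on the diet, Igf1r at -0.75 for diet in floxed islets, and Insr at 0.38 and 0.31 for diet in deleted and floxed islets.

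Counted over the 8 tested members, 1 was higher and 0 lower in deleted against floxed islets on the high-fat diet, where 10.7% of all tested genes passed (4.70% higher, 6.02% lower). With the diet, 1 was higher in deleted islets, where 15.0% of all genes passed (9.05% higher, 5.91% lower), and 1 was higher and 1 lower in floxed islets, where 28.5% passed (15.0% higher, 13.5% lower). The interaction of genotype with diet gave 1 higher, against 3.53% of all genes (1.42% higher, 2.11% lower). With 8 members, these counts do not stand apart from the shares over all genes.

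By limma, 0 members passed between genotypes at 8 weeks, where 0.548% of all genes passed (0.180% higher, 0.368% lower), and 1 member of 8, Igf1r, had an unadjusted p below 0.05, as did 12.5% of all genes. Between genotypes at 14 weeks on chow 0 members passed, where 0.114% of all genes passed (0.0654% higher, 0.0490% lower), and 0 had an unadjusted p below 0.05, as did 7.98% of all genes. From 8 to 14 weeks 0 passed in deleted islets, where 2.91% of all genes passed (2.35% higher, 0.564% lower), and 0 in floxed islets, where 4.15% passed (3.20% higher, 0.948% lower). At an unadjusted p below 0.05 these age comparisons counted 1 of 8 in deleted islets (Prlr), where 15.2% of all genes were counted, and 2 of 8 in floxed islets (Prlr and Insr), where 17.7% were. The interaction of genotype with age gave 0 members by either measure, against 0.196% of all genes (0.0490% higher, 0.147% lower) at the adjusted threshold and 8.91% at the unadjusted one.

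Groups did not overlap for 6 of 8 members between genotypes on the diet. Prlr, Socs2, Igf1r and Met were higher in deleted islets and Ghr and Egfr lower, where 16.4% of all genes were higher and 15.2% lower without overlap. With the diet, Insr was higher and Ghr lower without overlap in deleted islets (17.4% and 16.3% of all genes), and in floxed islets Insr was higher and Prlr, Socs2, Igf1r and Met lower (21.8% and 21.5% of all genes). Between genotypes on chow only Igf1r at 8 weeks did not overlap, where 7.19% of all genes were higher and 9.35% lower, with 6.25% and 7.36% at 14 weeks. With age, Prlr and Insr were lower without overlap in floxed islets (11.4% of all genes higher, 12.1% lower) and 0 members in deleted islets (9.93% higher, 10.3% lower). The median log2 difference of the members was 0.16 between genotypes on the diet, -0.03 and -0.09 for diet in deleted and floxed islets, and -0.11 and -0.09 for age in deleted and floxed islets, beside medians over all tested genes between -0.02 and 0.01 in the 9 comparisons.

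Tph1 and Tph2 encode the tryptophan hydroxylases, the rate-limiting enzymes of serotonin synthesis in peripheral tissue and in neurons. Tph1, on chromosome 7 (46644641 to 46672537, minus strand), had 13 fragments in all 18 libraries. They were 6 in 1 deleted library on the high-fat diet, 3 in 1 floxed library on chow at 14 weeks, 2 in 1 deleted library at 8 weeks, and 1 in each of 2 floxed libraries at 8 weeks. All other libraries had 0, including the 3 floxed libraries on the diet and the 3 deleted libraries on chow at 14 weeks, and the highest level was 0.107 FPKM.

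Tph2, on chromosome 10 (115078641 to 115185022, minus strand), had 3 to 31 fragments per library, 156 in all. The sums over 3 libraries were 17 in deleted and 31 in floxed islets on the high-fat diet, 25 in deleted and 49 in floxed islets on chow at 14 weeks, and 19 in deleted and 15 in floxed islets at 8 weeks. A single floxed library on chow at 14 weeks, with 31 fragments and 0.887 FPKM, held most of the 49, and its 2 companions had 5 and 13. Of 20 exact two-sided permutation tests on Tph1 and Tph2, none passed, and the smallest p was 0.09, for Tph2 by age with ages permuted within both genotypes (adjusted p = 1.0 for each). Tests of 3 libraries against 3 cannot give a p below 0.1, while that test, pooled over both genotypes, could reach 0.005. In floxed islets the Poisson intervals of the Tph2 sums, 49 (36.3 to 64.8) at 14 weeks and 15 (8.40 to 24.7) at 8 weeks, did not overlap, but the libraries did (exact p = 0.2).

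**Figure D3:**
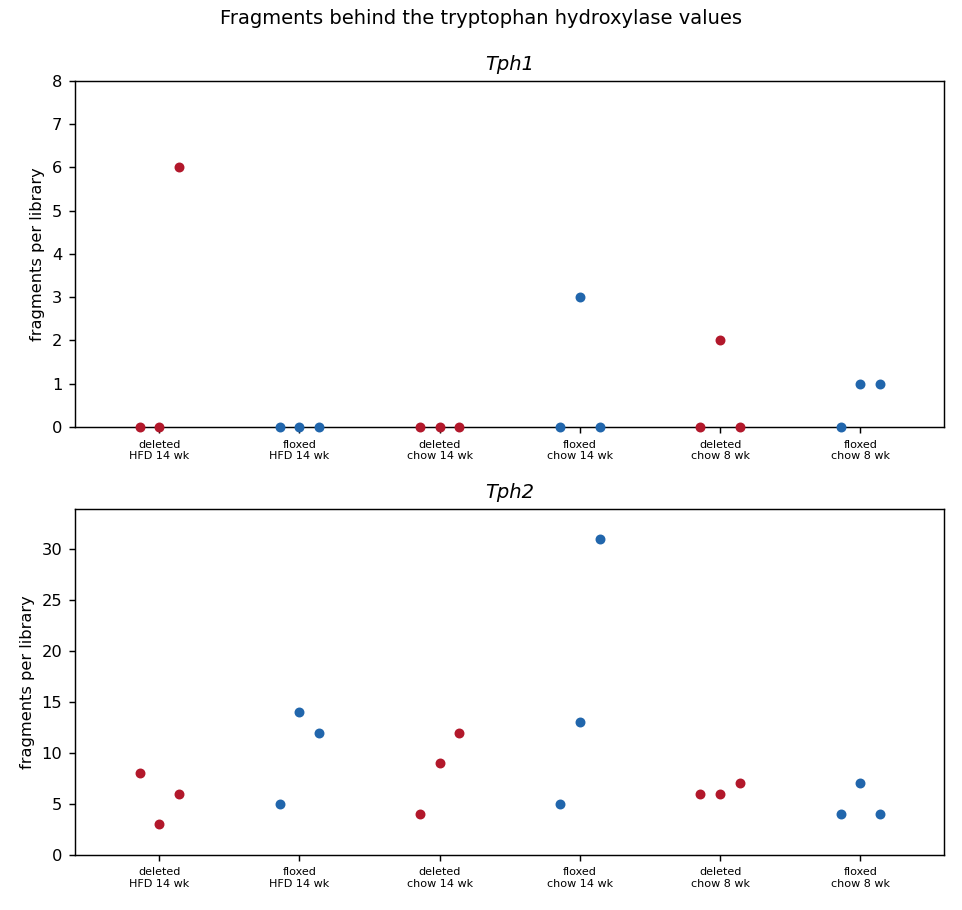
Fragments per library (linear axes) recovered from the deposited FPKM of Tph1 (top) and Tph2 (bottom), 1 point per library in deleted (red) and floxed (blue) islets. Tph1 is at 0 in 13 of 18 libraries and reaches 6 fragments in 1, while Tph2 has 3 to 31.

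Other genes of serotonin handling spanned a wide range of levels, and 13 of 27 passed the filter. Ddc, the decarboxylase that completes serotonin synthesis and also serves dopamine synthesis, had means of 98.8 ± 2.1 FPKM in deleted and 101 ± 9.4 FPKM in floxed islets on the high-fat diet, and 77.4 to 91.0 FPKM in the 4 chow groups. The vesicle transporter gene Slc18a1 averaged 7.82 to 10.2 FPKM and Slc18a2 1.26 to 1.90 FPKM, while the plasma membrane transporter gene Slc6a4 was listed at 0 in 5 of 6 groups. Of the serotonin receptors tied to beta cell division in pregnant mice, Htr2b averaged 0.119 to 0.359 FPKM and Htr1d 0.00928 to 0.0806 FPKM.

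Of 13 tested genes of serotonin handling, 2 rose and 1 fell in deleted against floxed islets on the high-fat diet, where 10.7% of all tested genes passed. Maob, which encodes a monoamine oxidase, averaged 113 ± 8.4 FPKM in deleted islets, against 67.2 ± 6.9 FPKM in floxed islets, a rise of 0.74 (adjusted p = 1.84e-05). Spr, an enzyme that makes the hydroxylases' cofactor tetrahydrobiopterin, averaged 19.9 ± 1.8 and 30.7 ± 3.3 FPKM in deleted and floxed islets, and fell by 0.60 on the log2 scale (adjusted p = 0.000224). Gch1, which encodes another enzyme of that cofactor's synthesis, went the other way, with a rise of 0.20 (adjusted p = 0.0317). Its level was 439 ± 11 FPKM in deleted islets, against 381 ± 20 FPKM in floxed islets. This Gch1 call was lost in 4 of the alternative analyses. The diet response of Maob and Spr differed between genotypes, by 0.75 for Maob (adjusted p = 0.00208) and -0.58 for Spr (adjusted p = 0.0129). The list's median was 0.02 between genotypes on the diet.

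Upstream of the receptors, Gh, Prl and the placental lactogen genes Prl3d1 and Prl3b1 were listed at 0 in all 18 libraries. Igf1 had mean levels of 0.226 FPKM in deleted islets and 0.407 FPKM in floxed islets on the diet and 0.548 to 0.765 FPKM on chow, below the filter. Igfals, whose protein carries IGF-1 in blood, was the 1 ligand-list gene tested and averaged 30.9 to 38.0 FPKM with no difference that passed.

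Among 5 tested genes of the IGF binding protein list, 2 fell in deleted against floxed islets on the high-fat diet, where 10.7% of all tested genes passed. The list also holds Igf2bp2, whose protein binds mRNA, so its counts and median are not those of IGF binding proteins alone. Igfbp3, which binds IGF-1 outside the cell, averaged 25.8 ± 3.6 FPKM in deleted islets, against 73.9 ± 5.1 FPKM in floxed islets, a difference of -1.49 (adjusted p = 3.87e-06). Igfbp5 was at 7.601 ± 1.4 FPKM in deleted islets, against 11.8 ± 2.1 FPKM in floxed islets, a difference of -0.57 (adjusted p = 0.00364). For Igfbp3 the diet response differed between genotypes, by -1.08 (adjusted p = 0.00561). Igfbp3 is thus opposite in direction to Igf1r between genotypes on the diet, but the 2 genes changed with the diet in different genotypes. Igfbp3 fell with the diet in deleted islets, from 47.6 ± 2.8 FPKM on chow at 14 weeks (adjusted p = 0.000580). In floxed islets it had 64.4 ± 13 FPKM on chow, and its diet difference did not pass. Igf1r fell with the diet in floxed islets and did not pass in deleted islets. The list's median between genotypes on the diet was -0.23.

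Of 18 tested JAK-STAT5 signalling genes, 1 rose between genotypes on the high-fat diet, where 10.7% of all tested genes passed, with a list median of 0.02. That gene, Jak1, did not pass without floxed high-fat diet replicate 2, and without deleted 8-week replicate 2 the count was 2. With the diet, 1 rose and 2 fell in deleted islets (15.0% of all tested genes passed), and 2 rose and 5 fell in floxed islets (28.5%). Socs3, an inhibitor of cytokine signalling, was lower on the diet than on chow at 14 weeks in both genotypes. In deleted islets it had 3.57 ± 0.65 FPKM on the diet, against 9.65 ± 1.2 FPKM on chow (adjusted p = 0.000573). In floxed islets the levels were 4.76 ± 0.46 and 9.72 ± 2.1 FPKM (adjusted p = 0.00353). The 14-week chow groups had the highest Socs3 means of the 6 groups. At 8 weeks Socs3 was at 6.09 ± 1.9 FPKM (deleted) and 5.10 ± 1.4 FPKM (floxed), each overlapping the matching diet group. From 8 to 14 weeks it rose in floxed islets by 0.83 (adjusted p = 0.0266, lost in 5 of the alternative analyses). Ptpn11, a phosphatase that relays receptor signals, rose on the diet by 0.42 in deleted and 0.43 in floxed islets (adjusted p = 0.000566 and 0.000213). Stat5a rose on the diet in floxed islets, to 4.77 ± 0.22 FPKM against 3.05 ± 0.27 FPKM on chow (adjusted p = 0.00761). Jak2 averaged 11.3 to 14.3 FPKM and Stat5b 15.9 to 18.8 FPKM in the 6 groups.

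Of 14 tested genes that respond to pregnancy or prolactin in mouse islets, 2 rose and 2 fell between genotypes on the high-fat diet. There 10.7% of all tested genes passed, and the list median was 0.02. Fmo1, a flavin monooxygenase, rose to 2.39 ± 0.22 FPKM in deleted islets, against 1.21 ± 0.14 FPKM in floxed islets (adjusted p = 0.00720). Cdkn2c, an inhibitor of cell cycle kinases, fell to 2.34 ± 0.40 FPKM in deleted islets, against 6.31 ± 0.51 FPKM in floxed islets (adjusted p = 0.000190). With the diet, 1 rose and 2 fell in deleted islets (15.0% of all tested genes passed). In floxed islets 4 rose and 3 fell (28.5%). Cdkn1b, another such inhibitor, rose on the diet by 0.90 in deleted and 0.80 in floxed islets (adjusted p = 0.000243 and 0.000312). The cyclin gene Ccnd2 was lower in both, by -0.23 and -0.30 (adjusted p = 0.0394, lost in 6 of the alternative analyses, and 0.00574). Cdkn2c fell in deleted islets (-0.66, adjusted p = 0.0104) and rose in floxed islets (0.59, adjusted p = 0.0117). These Cdkn2c calls were lost in 2 and 1 of the alternative analyses.

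Of 28 tested insulin and IGF signalling genes, 3 rose and 0 fell between genotypes on the high-fat diet, with a median of 0.05. This share is no higher than the 10.7% of all tested genes that passed there. The 18 JAK-STAT5, 13 EGF family and 6 hepatocyte growth factor genes had smaller shares. Larger shares were those of the IGF binding protein list (2 of 5, with Igf2bp2 counted), pregnancy and prolactin response (4 of 14) and serotonin handling (3 of 13). Grb10, an adaptor that restrains both receptors, averaged 12.6 ± 0.56 FPKM in deleted islets, against 9.14 ± 0.058 FPKM in floxed islets (adjusted p = 0.00224). Tsc1, a brake on the kinase mTOR, averaged 10.3 ± 0.64 FPKM in deleted islets, against 7.30 ± 0.89 FPKM in floxed islets (adjusted p = 0.00324). With the diet, 5 rose and 3 fell in deleted islets (8 in all, but 4 without chow replicate 3 and 5 without high-fat diet replicate 1 or 2) and 2 rose and 5 fell in floxed islets (7 in all, but 4 without high-fat diet replicate 1 or 3, or chow replicate 1 or 2). Of all tested genes 15.0% passed with the diet in deleted and 28.5% in floxed islets. Between genotypes on the diet the count of insulin and IGF signalling genes was 5 without deleted 8-week replicate 1. Irs2, the main receptor substrate of beta cells, rose in deleted islets to 5.92 ± 0.29 FPKM on the diet, against 3.03 ± 0.31 FPKM on chow (adjusted p = 0.00184). In floxed islets Irs2 was also higher by mean on the diet, at 5.95 ± 0.90 FPKM against 4.13 ± 0.99 FPKM on chow. In the interaction of genotype with diet 1 gene of this list passed, Foxo1, so the Irs2 responses of the genotypes were not told apart. Grb10 fell in floxed islets to 9.14 ± 0.058 FPKM on the diet, against 13.5 ± 0.39 FPKM on chow (adjusted p = 0.000145).

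Of 13 tested genes of the EGF family and its regulators, 1 fell between genotypes on the high-fat diet, with a median of -0.11. That gene was Btc, which encodes the Egfr ligand betacellulin, at 0.584 ± 0.16 FPKM in deleted and 1.67 ± 0.48 FPKM in floxed islets (adjusted p = 0.00224). With the diet, 1 rose and 3 fell in deleted islets (2 in all without chow replicate 1), and 2 rose and 3 fell in floxed islets (3 in all without chow replicate 3). Over all tested genes 15.0% passed with the diet in deleted and 28.5% in floxed islets. Between genotypes the EGF family count was 2 without deleted high-fat diet replicate 3, floxed high-fat diet replicate 1 or floxed 8-week replicate 3. Errfi1, an inhibitor of Egfr, fell in floxed islets to 8.84 ± 0.62 FPKM on the diet, against 14.5 ± 0.69 FPKM on chow (adjusted p = 3.60e-05). Of 6 tested genes around hepatocyte growth factor, 0 passed between genotypes on the diet and 1 (Spint2) rose with the diet in each genotype, or 2 in floxed islets without chow replicate 1. Hgf itself averaged 0.261 to 0.503 FPKM in the 6 groups, below the filter.

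Mitotic genes were the set against which the members were compared. Their summed FPKM over 24 genes was 13.6 to 17.1 in deleted islets and 29.4 to 40.1 in floxed islets on the high-fat diet, and 15.0 to 20.4 over the 12 chow libraries. Because the filter can favour genes that are high in 1 group, all 24 were also taken through a limma fit with no filter on low values. In that fit 12 of 24 fell and 0 rose in deleted against floxed islets on the diet, with a median of -0.42, where 6.67% of all genes passed. With the diet 15 of 24 rose in floxed islets (median 0.45, against 17.5% of all genes), and in deleted islets 0 passed (median -0.02, against 8.82% of all genes), with 3 of 24 at an unadjusted p below 0.05. The interaction of genotype with diet gave 7 lower, against 1.69% of all genes. Ube2c, whose product drives exit from mitosis, averaged 0.958 ± 0.49 FPKM in deleted islets, against 5.96 ± 2.8 FPKM in floxed islets (adjusted p = 0.000312 with the filter).

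With the filter 10 mitotic genes entered, and 3 of them (Top2a, Ccnb1 and Cdk1) did so only through floxed islets on the diet, where they were highest. These 3 therefore had to differ, and the filtered counts are given as a description. Between genotypes on the diet 7 passed, or 4 without floxed high-fat diet replicate 2. With the diet in floxed islets 8 passed, or 5 without high-fat diet replicate 1 or 3 or chow replicate 1, and 4 without high-fat diet replicate 2. In the interaction 6 passed, or 3 without floxed high-fat diet replicate 1 or 3. No member and no gene of the 8 other pathway lists passed the filter through 1 group alone.

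The 3 floxed libraries on the high-fat diet had the highest mitotic sums of all 18 and the lowest Igf1r, Socs2 and Met levels of all 18. Prlr had its lowest group mean there too, at 29.4 ± 1.4 FPKM. Ghr had its highest group mean there, at 154 ± 13 FPKM, with overlap of the next group, and the means of Cish, Insr and Egfr there were neither the highest nor the lowest of the 6 groups.

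**Figure D4:**
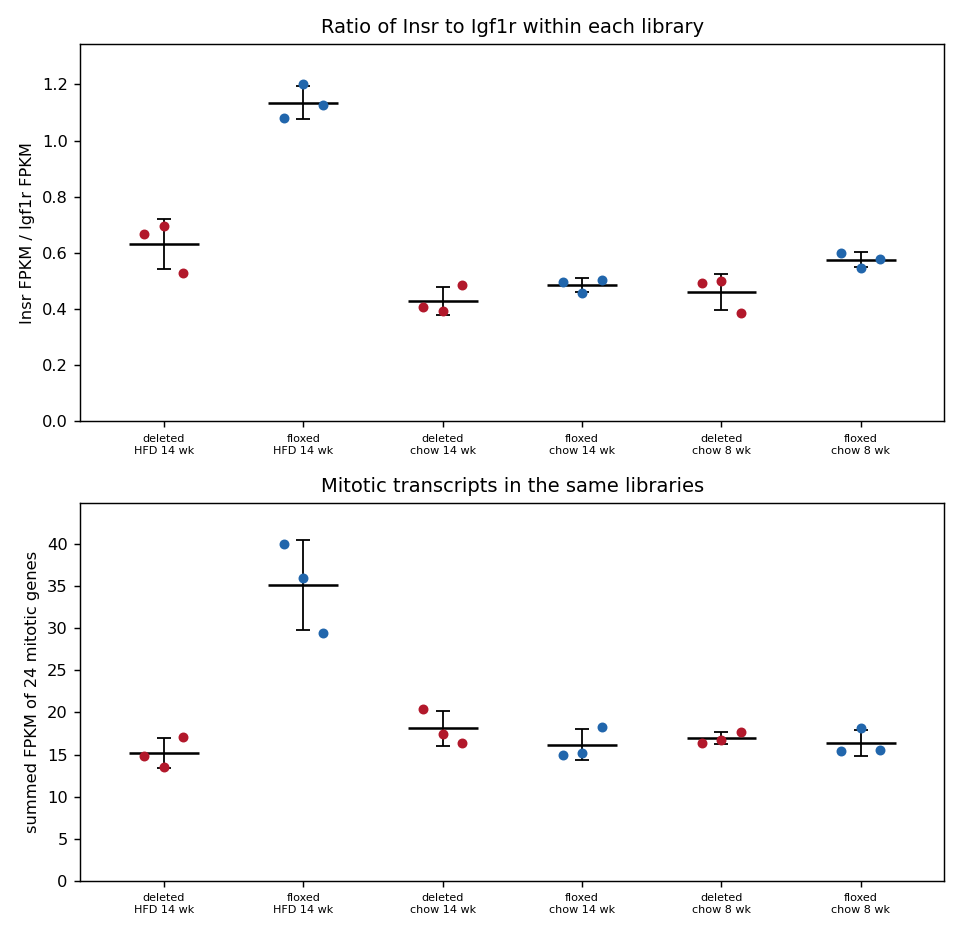
Ratio of Insr FPKM to Igf1r FPKM in each library (top) and the summed FPKM of 24 mitotic genes in the same libraries (bottom), with points for libraries in deleted (red) and floxed (blue) islets and bars for the mean and SD (n = 3). On the high-fat diet the ratio is 0.529 to 0.697 in deleted and 1.08 to 1.20 in floxed islets, and the mitotic sum is 13.6 to 17.1 in deleted and 29.4 to 40.1 in floxed islets.

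Markers of other cell types also differed between deleted and floxed islets on the high-fat diet, where Igf1r differed and 10.7% of all tested genes passed. The alpha cell list (7 genes, led by Gcg) summed to 36187 to 46625 FPKM in deleted and 23403 to 28299 FPKM in floxed islets, with 4 of 6 tested markers higher, and 3 of 5 delta and PP cell markers were higher. The endothelial list summed to 143 to 153 FPKM in deleted and 171 to 219 FPKM in floxed islets, with 5 of 10 lower, and the fibroblast and pericyte list to 7.497 to 10.4 FPKM in deleted and 10.8 to 28.0 FPKM in floxed islets, with 1 of 7 lower. The adipocyte list summed to 41.3 to 43.7 FPKM in deleted and 64.7 to 71.6 FPKM in floxed islets, with 2 of 2 tested lower, while its defining markers Adipoq, Plin1 and Lep were at 0 in every library. Of 10 beta cell markers 3 were higher, and 0 of 10 acinar, 0 of 5 duct and 0 of 2 lymphocyte markers passed, with 1 of 8 macrophage markers higher and 1 lower. The part of these lists in the Igf1r difference was not tested, and in bulk islets fewer cells of a type and less RNA per cell cannot be told apart.

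Most marker lists differed between high-fat diet and chow at 14 weeks, where Insr rose. Of all tested genes 15.0% passed there in deleted and 28.5% in floxed islets. The acinar list (13 genes) summed to 92.8 to 190 FPKM in deleted and 20.9 to 259 FPKM in floxed islets on the diet, against 1327 to 2369 FPKM in deleted and 909 to 4410 FPKM in floxed islets on chow at 14 weeks, with 8 and 10 of 10 tested markers lower. Beta cell markers were higher for 9 of 10 in deleted islets, and for 4 of 10 in floxed islets with 1 lower. Alpha cell markers were higher for 3 of 6 in deleted islets and lower for 2 of 6 in floxed islets, and delta and PP cell markers were higher for 2 of 5 in deleted islets and lower for 3 of 5 in floxed islets. Lower markers also numbered 4 and 5 of 10 endothelial, 6 and 3 of 7 fibroblast and pericyte, 2 and 7 of 8 macrophage, and 1 and 3 of 5 duct markers in deleted and floxed islets. Of 2 tested lymphocyte markers 1 was higher in each genotype. The lymphocyte marker Nkg7 passed the filter only through deleted islets on the diet, where it was highest, so the lymphocyte counts are given as a description. Of 2 adipocyte markers 2 were higher in floxed islets and 0 passed in deleted islets. The part of these lists in the Insr rise was not tested.

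The genes whose log2 levels over all 18 libraries ran closest to each member were named by Pearson's r, as a description over 18 libraries that share 6 groups. Enpp2 (r = 0.94), Slc35b4 (0.92) and Lpl (0.91) ran closest to Igf1r, and Ptpn23 (0.88), Trove2 (0.87) and Crtc3 (0.87) to Insr. For the other members the closest genes were Gnai3 for Prlr (0.88), Gstz1 for Ghr (0.85), Fam83b for Cish (0.79), Gdap2 for Socs2 (0.89), Klf12 for Met (0.87) and Galc for Egfr (0.75).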

How the data were processed

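RNA was measured in 18 libraries of isolated islets. Per the labels' protocols, total RNA came from a miRNeasy extraction, SMART-Seq HT gave the cDNA and Nextera the libraries, so strand is not marked. Per the submitters' processing notes, the build was mm10 and the tools were Cufflinks 2.2.1, TopHat2 2.0.13, SAMtools 0.1.19 and Bowtie2 2.2.3. Each library has 1 table of FPKM per gene, as deposited. The headers do not name the unit, which rests on the use of Cufflinks and on the spacing of the values, and the annotation behind the tables is not given in the sources used here.

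From the FPKM, log2(FPKM + 1) was modelled with limma 3.58.1 (R 4.3.3, statmod 1.5.0) as 6 group means with trended, robust moderated variances. The filter kept a gene that reached 1 FPKM in 3 or more of 18 libraries, and two-sided p-values were adjusted over 12234 genes by the Benjamini-Hochberg method in each of 9 comparisons. A gene passed at an adjusted p below 0.05. Tph1 and Tph2 were compared by exact permutation. Low FPKM values are whole multiples of a step set by gene and library. Fragments were recovered from these steps where every value lay within 0.1 of a whole number, with relative depths searched within 4 on the log2 scale. The model was tested on simulated data. Positions are from the GENCODE M21 annotation of GRCm38, and promoters from RefSeq (GRCm38.p6).

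The members and gene lists were chosen with earlier results of these data known. The 10 members are named in every comparison, and up to 4 genes with the smallest p of each list may be named among those that passed. Alternatives were a pseudocount of 0.1 FPKM, no filter, quantile normalization, median-ratio scaling, a filter at a mean of 2 FPKM, quality weights for samples, a fit of only the compared groups, replicate number as a block, and leaving out each library in turn, which takes the group of 2 to vary as other groups do. Tables and figures used python 3.11.15, numpy 2.4.6, pandas 2.3.3, scipy 1.17.1 and matplotlib 3.10.9.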

Additional observations from a re-analysis of the deposited data

Results flagged for a closer look

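The diet response, high-fat diet against chow at 14 weeks, differed between deleted and floxed islets for Igf1r among the members, by the limma interaction of genotype with diet. The interaction, as the log2 difference in deleted islets minus that in floxed islets, was 0.66 for Igf1r (adjusted p = 0.00696). The same test passed for 12 further genes of the pathway and mitotic lists, of which 10 are named here, with at most 4 from each list. Foxo1, a transcription factor restrained by insulin signals, was at 0.49 (adjusted p = 0.0349, lost in 9 of the alternative analyses), and Maob was at 0.75 (adjusted p = 0.00208). Igfbp3 was at -1.08 (adjusted p = 0.00561), Spr at -0.58 (adjusted p = 0.0129) and Areg, which encodes the Egfr ligand amphiregulin, at -1.09 (adjusted p = 0.0217, lost in 5 of the alternative analyses). Among cell cycle genes, Cdkn2c was at -1.26 (adjusted p = 0.00487), Birc5, which is in both the pregnancy and the mitotic list, at -1.50 (adjusted p = 0.00701), Ccnb1 at -1.09 (adjusted p = 0.00561), Cdk1 at -1.13 (adjusted p = 0.00793) and Ube2c at -1.85 (adjusted p = 0.00895). Ccnb1 and Cdk1 passed the filter on low values only through floxed islets on the high-fat diet, where they were highest, so their differences are given as a description.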

How the results depend on the processing

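Of 1872 member values under 26 alternatives, none changed the direction of a call, 6 lost it and 13 gained one. The count of members that passed between genotypes on the high-fat diet was 1, and 2 with sample quality weights (Met, adjusted p = 0.0493) and with the replicate block (Socs2, 0.0182), and 1 to 2 with a library left out (Met passed without deleted high-fat diet replicate 3 or deleted 8-week replicate 1). For diet in deleted islets it was 1, and 2 with quantile normalization (Ghr, -0.19, adjusted p = 0.0440), 0 in a fit of only the compared groups, and 0 to 1 with a library left out. For diet in floxed islets it was 2, and 3 with a pseudocount of 0.1 FPKM, a filter at a mean of 2 FPKM or sample quality weights (Met, adjusted p = 0.0499, 0.0483 and 0.0212) and with the replicate block (Socs2, 0.0342), and 1 to 3 with a library left out. For age in deleted islets it was 0, and 1 with sample quality weights (Cish, -0.47, adjusted p = 0.0343). The other 5 comparisons kept their counts of members in all 26 alternatives. The cause of these changes was not tested. Over all alternatives, the mitotic count was 2 to 12 between genotypes on the diet (7 of 10 with the filter), 1 to 15 for diet in floxed islets (8) and 1 to 7 for the interaction with diet (6), where filters admit different numbers of these low genes. The count over all genes was 820 to 1602 between genotypes on the diet (1312), 16 to 406 at 8 weeks (67), 2 to 114 at 14 weeks on chow (14), 1159 to 2834 and 2585 to 4052 for diet in deleted and floxed islets (1830 and 3486), 85 to 1032 and 232 to 963 for age (356 and 508), 257 to 778 for the interaction with diet (432) and 3 to 182 for that with age (24). Between genotypes on the diet, list counts were 0 to 2 for JAK-STAT5 (1), 2 to 7 for insulin and IGF signalling (3), 2 to 5 for pregnancy and prolactin (4) and 0 to 2 for the EGF family (1). Whether the same replicate numbers pair the samples was not settled (45 pairs, r of -0.16 to 0.23, 8 over 0.1). Of 18 libraries 12 correlated best with their own number, and the replicate block changed the call of no member other than Socs2. Tph1 rests on 0 to 6 fragments a library and Tph2 on 3 to 31.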

Other observations

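From 8 to 14 weeks on chow, in neither genotype did a member pass, but 2 genes downstream of the insulin and IGF receptors did in both. They are among 28 tested insulin and IGF signalling genes. Over all tested genes 2.91% passed with age in deleted and 4.15% in floxed islets. In floxed islets Insrr of that list was also lower at 14 weeks, by -0.32 (adjusted p = 0.0270, lost in 7 of the alternative analyses). Akt2, the kinase that relays insulin signals to glucose uptake and glycogen synthesis, rose to 57.5 ± 2.2 FPKM at 14 weeks in deleted islets, against 31.9 ± 4.4 FPKM at 8 weeks (adjusted p = 5.68e-06). In floxed islets it rose to 57.9 ± 1.1 FPKM at 14 weeks, against 35.7 ± 2.7 FPKM at 8 weeks (adjusted p = 6.32e-05). On the high-fat diet at 14 weeks it fell to 41.9 ± 1.5 FPKM in deleted and 45.9 ± 1.5 FPKM in floxed islets (adjusted p = 0.000928 and 0.00493). The 14-week chow libraries are shared by the age and diet comparisons, and the summed acinar markers were highest, by group mean, in those 2 groups. The adaptor gene Shc1 rose with age by 0.44 in deleted and 0.53 in floxed islets (adjusted p = 0.0161 and 0.00319), and the call in deleted islets was lost in 4 of the alternative analyses. In floxed islets at 14 weeks Shc1 was lower on the diet, at 74.5 ± 3.9 FPKM against 106 ± 4.0 FPKM on chow (adjusted p = 0.000744).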
